A study of Bos indicus with 8 samples.

Results

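Immediate early genes outside the AP-1 family were followed in bovine blastocysts that had been vitrified and warmed. The set held 10 genes: EGR1, KLF6, MYC, NR4A1, IER2, IER3, IER5, DUSP1, ZFP36 and BTG2. They were taken by symbol from the 15229 gene symbols of the platform annotation, which gave them 11 of the 43794 gene probes of the array, with 2 probes for IER2 and 1 for each other gene. All 11 were among the 34912 probes that were above background often enough to be tested.

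The embryos were Bos indicus blastocysts produced in vitro and graded between 144 and 156 h after insemination. The vitrified group passed through ethylene glycol and dimethylsulfoxide, ending at 15% of each with 0.5 M sucrose, and was plunged into liquid nitrogen on the Cryotop, a film strip that carries embryos in a very small volume. It stayed there for at least 30 min, was warmed through 1 M and then 0.5 M sucrose, and was cultured for 4 h. The control group was kept meanwhile in handling medium at 37 °C and was then cultured for the same 4 h. Per the labels, embryos of both groups were kept only when they looked normal at the end of culture, so embryos that failed to re-expand are not represented. Each pool held 10 embryos, and its RNA was amplified before labelling. In such bulk RNA, fewer cells that express a gene and less RNA per cell cannot be told apart.

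Each of 8 two-colour arrays on 2 slides carried 1 vitrified and 1 control pool. Neighbouring areas of a slide had the dyes swapped and were averaged, which gave 4 pairs: areas 1 and 2 (pair 1) and areas 3 and 4 (pair 2) of the first slide, and areas 1 and 2 (pair 3) and areas 3 and 4 (pair 4) of the second slide. The quantity reported is the log2 ratio of vitrified over control, in which 0 is no difference. One array, area 1 of the second slide and so part of pair 3, had 28.0% of its probes above background. The other arrays had between 72.3% and 79.2%. When negative control spots of outlying brightness did not count toward the limit, a step chosen after the data were seen, that array was at 76.7% and all 11 probes were above background on 8 of 8 arrays in both channels. By the same limit, 6 of 6 trophectoderm markers, 3 of 3 inner cell mass markers, 1 of 2 primitive endoderm markers and 4 of 6 cumulus markers were above background in every channel. The mean log2 level of the trophectoderm markers was 11.3 to 11.7 in the vitrified channels and 11 to 11.4 in the control channels. That of the inner cell mass markers was 9.29 to 9.80 against 9.60 to 9.93, that of the primitive endoderm markers 8.82 to 9.21 against 9.24 to 9.48, and that of the cumulus markers 7.32 to 7.93 against 7.52 to 7.76. A ratio above 0 was found in 6 of 6 trophectoderm markers (median 0.26), against 52.1% of all tested probes. It was found in 1 of 3 inner cell mass markers (median -0.12), 1 of 2 primitive endoderm markers (median -0.41) and 4 of 6 cumulus markers (median 0.03). Of the markers in these lists 0 passed the test described below, and their part in the values of the immediate early genes was not tested.

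Immediate early genes are those that a cell transcribes within minutes of a growth signal or stress, without making new protein first. Kinases of the MAPK family, and kinases that they activate, phosphorylate factors such as the ELK proteins and CREB1, which already sit at these promoters beside SRF. The transcripts are short-lived, because many carry AU-rich elements that mark them for decay. Some of the products are transcription factors that start a later wave of genes, and others, such as DUSP1 and ZFP36, shut the response down again.

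None of the 10 genes passed the test for a difference between vitrified and control embryos. Of the 11 probes, 0 passed limma's test at a Benjamini-Hochberg adjusted p under 0.05, as did 0% of all 34912 tested probes (adjusted p of 0.528 to 0.996 for the 11). The mean ratios lay between -0.26 for MYC and 0.20 for EGR1. At an unadjusted p under 0.05 there were 2 of the 11 probes (18.2%), the bright probe of IER2 and MYC, against 7.70% of all tested probes. IER2 was the 1 on the higher side, where 3.29% of all tested probes lay, and MYC the 1 on the lower side, where 4.41% lay. The 95% intervals of the 11 probes, each taken singly, reached from 0.730-fold to 1.38-fold at their widest. An exact sign-flip permutation test over 4 pairs cannot give a two-sided p below 0.125, and IER2, MYC and NR4A1 reached that value. A p that misses the threshold does not show that the levels were equal. Nothing in the labels says that the pools came from separate cultures, so the p-values measure only the spread between these pools.

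The median ratio of the 11 probes was 0.05, against 0.0033 over all tested probes. 7 of the 11 (63.6%) were above 0, as were 52.1% of all tested probes. The sign of that median was not stable: under median centring instead of loess it was -0.01, with 5 of the 11 above 0. It was 0.01 without pair 3 and 0.10 without pair 4. 3 of the 11 (27.3%) had the same sign in all 4 pairs, against 15.9% of all tested probes: the bright probe of IER2 and NR4A1 above 0, and MYC below 0.

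**Figure D1:**
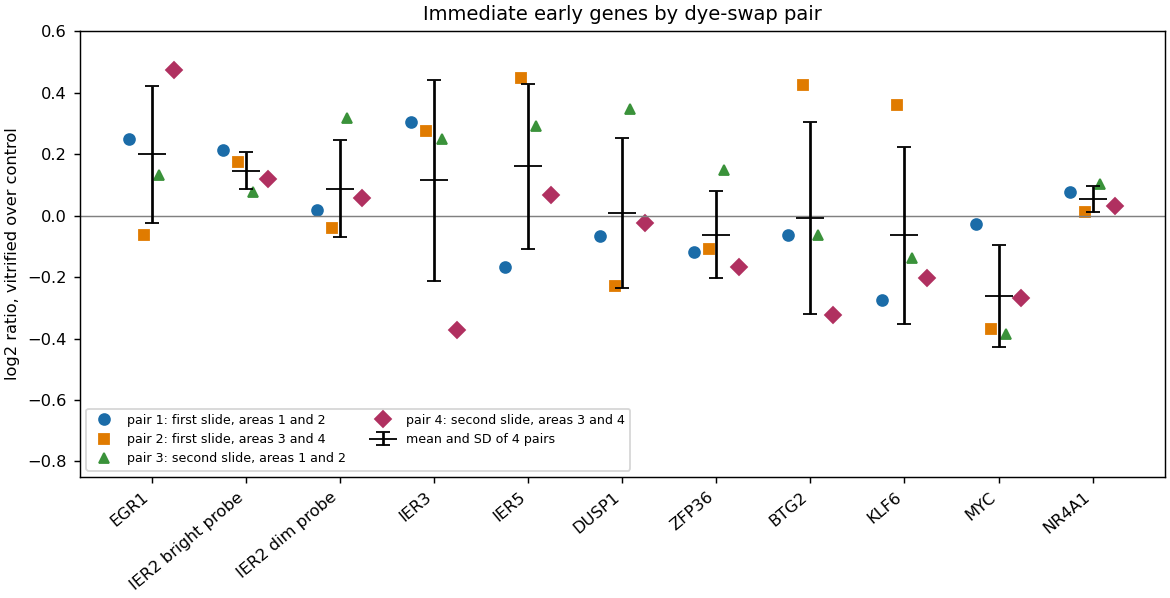
Log2 ratio of vitrified over control (vertical axis) for each of the 11 probes of the immediate early genes; coloured points are the 4 dye-swap pairs, and the black bar and whiskers are their mean and SD. The points of the bright IER2 probe and of NR4A1 lie above 0 and those of MYC below 0 in every pair, whereas the points of the other probes fall on both sides.

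Of the transcription factors, EGR1, a zinc finger protein and the textbook reporter of MAPK signalling, stood at 0.25, -0.06, 0.13 and 0.47 in pairs 1 to 4. It was above 0 in 3 pairs and on 6 of the 8 arrays, with the highest value in pair 4. The mean was 0.20 ± 0.22 (SD, n = 4), which is 1.15-fold, and did not pass the test (limma adjusted p = 0.727). Without pair 4 the mean was 0.11. EGR1 is encoded on chromosome 7, as is IER2. Its normalized log2 intensity by pair was 7.34 to 7.87 in vitrified and 7.21 to 7.46 in control pools, so the groups overlapped. The signal of EGR1 was low for the set. Its median over the 16 channel readings was 0.51 above the background limit on the log2 scale, against a median of 2.43 over the 11 probes and 0.498 over all tested probes. The limit for these member medians left out the negative control spots of outlying brightness.

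MYC, which binds DNA as a dimer with MAX and drives growth and ribosome synthesis, was the lowest of the set. Its ratios were -0.03, -0.37, -0.39 and -0.27 in pairs 1 to 4. All 4 pairs were below 0, pair 1 by little, and 7 of the 8 arrays were below 0. The mean of -0.26 ± 0.17 (SD, n = 4) is 0.834-fold, with a 95% interval of 0.730 to 0.952 and a limma adjusted p of 0.542, so the difference did not pass. MYC lies on chromosome 14. The level was 7.08 to 7.82 in vitrified and 7.46 to 7.85 in control pools, and these ranges overlapped. Its readings were also dim, with a median of 0.71 above the background limit set without outlying control spots. The size depended on the dye. The mean ratio was -0.45 on the 4 arrays with the vitrified pool in Cy3 and -0.07 on the 4 with it in Cy5.

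KLF6, a zinc finger factor of the Krüppel-like family, was at -0.27, 0.36, -0.14 and -0.20 in pairs 1 to 4. Pair 2 lay above 0 and the other 3 pairs below, so the mean of -0.06 ± 0.29 (SD, n = 4) was well inside the spread (limma adjusted p = 0.945). Without pair 1 the mean was 0.0059, without pair 2 it was -0.20, and without pair 4 it was -0.02. The gene is on chromosome 13. In the control pools alone its level ran from 7.60 to 8.30, wider than in the vitrified pools, at 7.53 to 8.16.

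NR4A1, an orphan nuclear receptor, was the steadiest of the set. Its ratios were 0.08, 0.01, 0.10 and 0.03, and the mean of 0.05 ± 0.04 (SD, n = 4) is 1.04-fold, with a 95% interval of 0.974 to 1.11 (limma adjusted p = 0.822). All pairs were above 0, yet 4 of the 8 arrays were below it. They were the 4 with the vitrified pool in Cy5, whose mean was -0.15, against 0.26 on the 4 with it in Cy3. Under median centring instead of loess the mean was -0.01. NR4A1 is on chromosome 5. Its level differed far more between pairs than between groups: the control pools were at 9.96, 10.19, 9.57 and 10.42 in pairs 1 to 4, and the vitrified pools were at 10.03, 10.20, 9.67 and 10.45.

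The 3 IER genes share the name immediate early response and are not a single protein family. IER2, a small nuclear protein, was measured by a bright and a dim probe. On the bright one (EMBV3_29423) the ratios were 0.21, 0.18, 0.08 and 0.12 in pairs 1 to 4. All pairs and 7 of the 8 arrays were above 0. The mean was 0.15 ± 0.06 (SD, n = 4), or 1.11-fold, with a 95% interval of 1.03 to 1.19, and did not pass over all probes (limma adjusted p = 0.528). The size depended on the dye here too, with a mean ratio of 0.23 on the 4 arrays with the vitrified pool in Cy5 and 0.06 on the 4 with it in Cy3. On the second slide the arrays with it in Cy3 were at -0.02 and 0.0051. Its vitrified pools, at 9.98 to 10.10, and control pools, at 9.782 to 9.977, did not overlap, the nearest values being 9.977 and 9.98. The other 10 probes overlapped, and 2.49% of all tested probes did not. Under median centring instead of loess the mean of the bright probe was 0.08. Its unadjusted limma p of 0.0155 depended on the processing. It was 0.512 under median centring and 0.0907 with the authors' deposited values. Among only the probes above background on all 8 arrays in both channels it was 0.163, with the same ratios. It was 0.00636 without background correction and lowest, at 0.000797, with the 8 arrays taken singly.

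The dim IER2 probe (EMBV3_00480) gave 0.02, -0.04, 0.32 and 0.06 in pairs 1 to 4, with a mean of 0.09 ± 0.16 (SD, n = 4). It carried the strongest dye difference of the set, with red over green at -0.72 on the log2 scale, averaged over the 8 arrays. The 4 arrays with the vitrified pool in Cy3 had a mean ratio of 0.81 and those with it in Cy5 one of -0.63. The 2 orientations thus gave opposite signs, each larger than their mean. On area 1 of the second slide, part of pair 3, the probe was below the limit over all negative control spots in both channels. Its ratio there was -0.19, against -0.73, -0.69 and -0.90 on the other arrays with the vitrified pool in Cy5. Averaged over both probes, IER2 was at 0.12.

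IER3, a stress-inducible survival gene on chromosome 23, was at 0.31, 0.27, 0.25 and -0.37 in pairs 1 to 4. The first 3 pairs were nearly equal and pair 4 stood on the other side of 0. The mean of 0.11 ± 0.33 (SD, n = 4) had the widest spread of the set (limma adjusted p = 0.913). Without pair 4 it was 0.28, with a limma adjusted p of 0.680, and without any 1 of the other pairs it was 0.05 to 0.07. Under median centring over all pairs it was 0.04. Both arrays of pair 4 were low, at -0.40 and -0.35. In that pair the control level was 11.48 and the vitrified level 11.10, whereas in pair 2, where the control level was 11.47, the vitrified level was 11.74.

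IER5, which in human cells is known as an activator of the heat shock factor HSF1, was at -0.17, 0.45, 0.29 and 0.07 in pairs 1 to 4. Pair 1 was below 0 and the other 3 were above. The mean was 0.16 ± 0.27 (SD, n = 4), 1.12-fold, and did not pass (limma adjusted p = 0.835). It was 0.27 without pair 1, 0.06 without pair 2 and 0.09 under median centring. IER5 is on chromosome 16, as is BTG2. Its control pools lay at 10.05 to 10.51 and its vitrified pools at 9.98 to 10.57.

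Of the genes whose products act on kinases or on RNA decay, DUSP1, a phosphatase that switches MAP kinases off, was at -0.07, -0.23, 0.35 and -0.02 in pairs 1 to 4. Only pair 3 was above 0, and without it the mean was -0.11, whereas without pair 2 it was 0.09. Over all pairs the mean was 0.0076 ± 0.24 (SD, n = 4), with a 95% interval of 0.835-fold to 1.21-fold (limma adjusted p = 0.995). The gene lies on chromosome 20, and its signal was high, with a median of 3.86 above the background limit set without outlying control spots.

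ZFP36, also called tristetraprolin, binds AU-rich elements and draws the CCR4-NOT deadenylase to the transcript. It stood at -0.12, -0.11, 0.15 and -0.17 in pairs 1 to 4. As for DUSP1, pair 3 was the only one above 0. The mean was -0.06 ± 0.14 (SD, n = 4), and the groups overlapped (limma adjusted p = 0.903). Without pair 3 it was -0.13, with a limma adjusted p of 0.483, and without pair 4 it was -0.03. The 4 arrays with the vitrified pool in Cy5 had a mean ratio of -0.22, and the 4 with it in Cy3 were on the other side of 0, at 0.09. ZFP36 is on chromosome 18.

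BTG2, an antiproliferative protein that binds the deadenylase subunits of the same complex, was at -0.06, 0.42, -0.06 and -0.32. Pairs 2 and 4 were far apart in opposite directions, and the mean was -0.0065 ± 0.31 (SD, n = 4, limma adjusted p = 0.996). Without pair 2 it was -0.15 and without pair 4 it was 0.10. Its levels were higher on the first slide in both groups. The control pools of pairs 1 to 4 were at 9.77, 9.62, 9.09 and 9.33, and the vitrified pools at 9.70, 10.04, 9.03 and 9.01. Whether the slides differed was not tested.

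**Figure D2:**
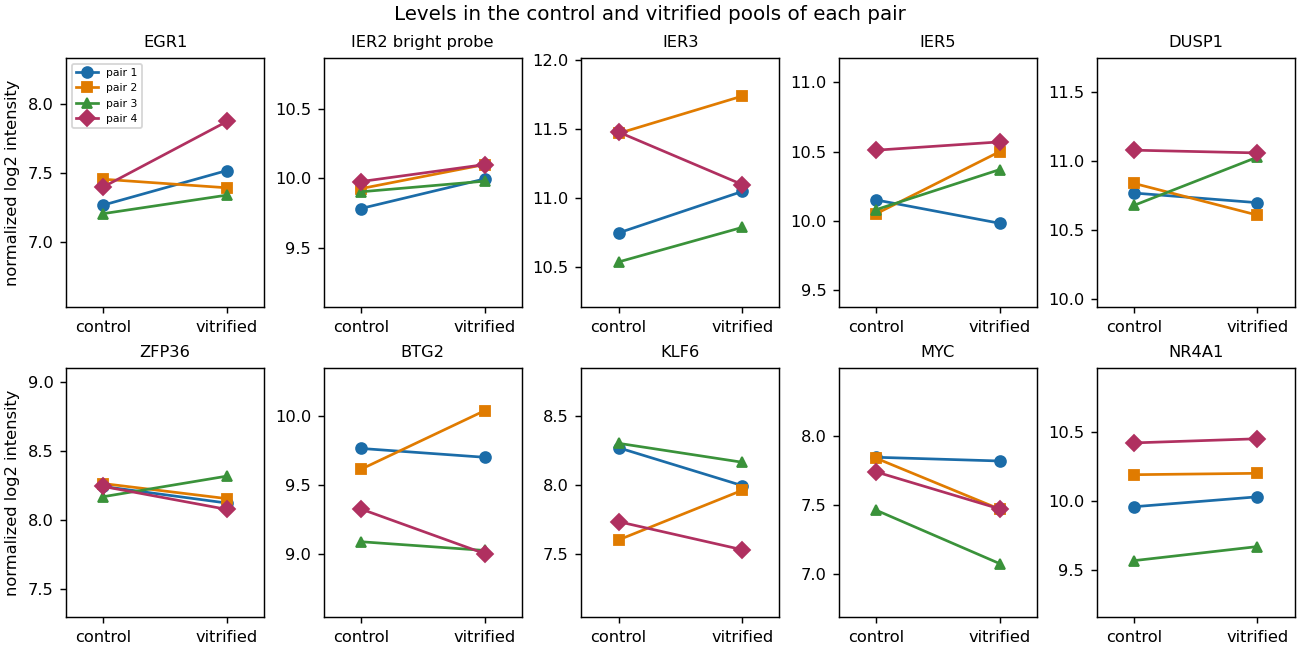
Normalized log2 intensity (vertical axis, spanning the same height in each panel) of the control and vitrified pools of each pair, joined by a line, for the main probe of each of the 10 genes. The lines of NR4A1 are nearly flat and far apart from each other, those of the bright IER2 probe all climb by 0.08 to 0.21, and those of BTG2 and KLF6 cross or run in opposite directions.

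For most of the genes the pairs differed by more than the neighbouring arrays within a pair did. Neighbouring arrays were taken as readings of the same pools with the dyes exchanged, because over all tested probes, which are not independent replicates, their ratios correlated at a mean r of 0.834 once the dye effect was removed. For IER3, the SD between pairs was 0.33 and the SD within pairs, after the dye difference of the probe was removed, was 0.018, a ratio of 18.4. For IER5 the ratio was 12.5, for KLF6 6.62, for BTG2 4.81 and for DUSP1 4.39. In each of IER3, IER5, BTG2, KLF6 and EGR1, both arrays of every pair had the same sign. NR4A1 and the dim IER2 probe had ratios of 0.465 and 0.836, so that their pairs differed by less than their arrays did.

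Of the 11 probes, 9 (81.8%) varied more between than within pairs, as did 77.5% of all tested probes. The median SD between pairs was 0.22 for the 11, against 0.13 over all tested probes, and 9 of the 11 lay above that median. The median SD within pairs was 0.056 against 0.063. These are descriptions of the set, without a test. The 11 probes were also brighter, with a median signal 2.43 above the background limit on the log2 scale, against 0.498 over all tested probes. The background correction draws ratios of dim spots toward 0. The part of brightness in the SD between pairs was not tested.

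**Figure D3:**
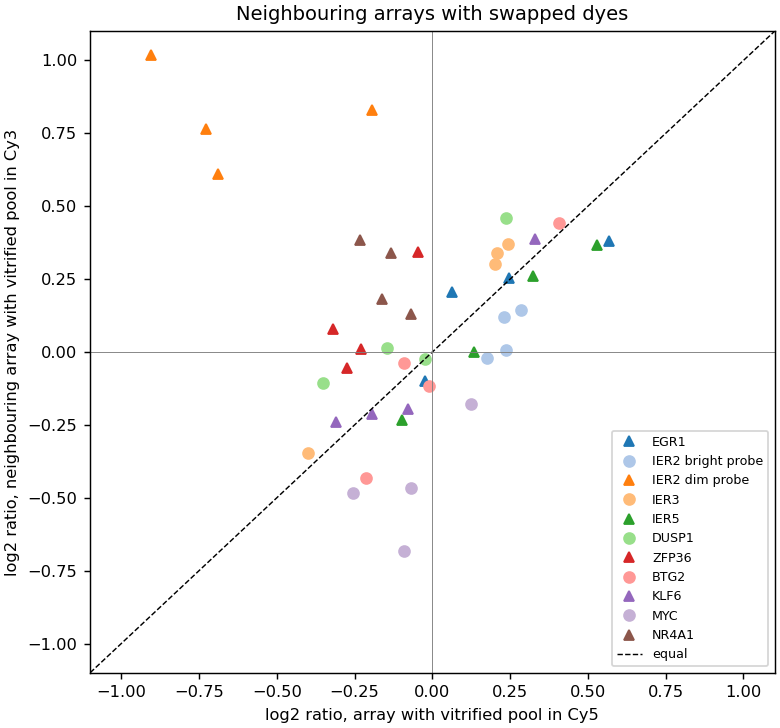
Each point is 1 probe in 1 dye-swap pair, with the log2 ratio of the array that had the vitrified pool in Cy5 on the horizontal and that of the neighbouring array with swapped dyes on the vertical axis; the dashed line marks equal values. IER3, IER5, KLF6 and BTG2 lie near the line, while NR4A1 and above all the dim IER2 probe lie to its upper left.

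Within a pair, the genes lay on both sides of 0. Counting the main probe of each of the 10 genes, 4 were above 0 in pair 1, 6 in pair 2, 7 in pair 3 and 4 in pair 4. The medians were -0.05, 0.09, 0.12 and -0.09, whereas the median of all tested probes lay between -0.00065 and 0.0066. In pair 3 DUSP1 and ZFP36 were at their highest, in pair 2 BTG2, KLF6 and IER5, and in pair 4 EGR1, while IER3 was at its lowest in pair 4. By slide, BTG2 was at 0.18 on the first and -0.19 on the second, DUSP1 at -0.15 and 0.16, and IER3 at 0.29 and -0.06, and these differences were not tested.

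The 4 pair values of EGR1 were most like those of TSTD1, SNX21 and LENG8 among 13135 named genes, by Euclidean distance over the 4 pairs. The distances were 0.058, 0.095 and 0.12, against a median of 0.63. They were picked as the smallest among 13135 genes over only 4 values, so they lie below the median by construction. Of the other members, IER2 ranked 1079 and NR4A1 2028 by this measure, and BTG2, at 11310, was the farthest.

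Other genes of the response were read from lists that go with the members. Of 43 other immediate early genes and paralogs tested, 0 passed limma's test, 20 were above 0 and 23 below, and the median was -0.0063. The 2 with the smallest p were paralogs of members, and both were lower in 4 of 4 pairs. ZFP36L2, an RNA-binding relative of ZFP36, was at -0.25 ± 0.08 (SD, n = 4, limma adjusted p = 0.464), though its other probe was at -0.03. BTG1, a relative of BTG2, was at -0.25 ± 0.13 (SD, n = 4, limma adjusted p = 0.516). ZFP36 and BTG2 themselves were at -0.06 and -0.0065.

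The CCR4-NOT complex, which shortens poly(A) tails and is recruited by ZFP36 and BTG proteins, had 7 of 10 tested subunits below 0 and a median of -0.14, and 0 of them passed. The other 3 of the 10 were above 0, against 52.1% of all tested probes. CNOT8, a catalytic deadenylase subunit, was at -0.23, -0.20, -0.14 and -0.25 in the pairs, a mean of -0.21 ± 0.05 (SD, n = 4, limma adjusted p = 0.464). CNOT1, the scaffold, was at -0.20, -0.19, -0.43 and -0.18, a mean of -0.25 ± 0.12 (SD, n = 4, limma adjusted p = 0.495). Both were below 0 in every pair. Not all subunits lay that way: at an unadjusted p under 0.05 there were 3 lower and 1 higher of the 10. Over all tested probes, 4.41% were lower and 3.29% higher at that limit. The lower ones included CNOT2, also named after its value was seen, at -0.27, with its 3 other probes at -0.16 to 0.08. The 1 higher, named after its value was seen, was RQCD1, at 0.14, 0.01, 0.27 and 0.21 in the pairs, a mean of 0.16 ± 0.11 (SD, n = 4, limma adjusted p = 0.613). Its 4 other probes had means of -0.17 to 0.04.

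Upstream of the members, 18 kinases and promoter-bound factors were tested and 0 passed, with 8 above 0, 10 below and a median of -0.0036. ELK4, an SRF partner, was at -0.28 ± 0.17 and CRTC2, a CREB coactivator, at 0.11 ± 0.06 (SD, n = 4 each). Of 10 genes listed as MYC partners, 0 passed and 8 were above 0, against 52.1% of all tested probes, with a median of 0.04. That list takes in the wider MAX network and not only proteins that bind MYC. MLX was at 0.23 ± 0.29, with its other probe at 0.01, and MXD4 at 0.07 ± 0.05. Of 6 tested AP-1 subunits, 0 passed, 3 were above 0 and the median was 0.0028. FOSL1 was at 0.67, 0.47, 1.13 and 0.94 in pairs 1 to 4, with a mean of 0.80 ± 0.29 (SD, n = 4, limma adjusted p = 0.464) that lies above the means of all 11 member probes. FOS was at 0.19 ± 0.15, with its other probe at -0.01. Whether FOSL1 differed from the members was not tested.

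**Figure D4:**
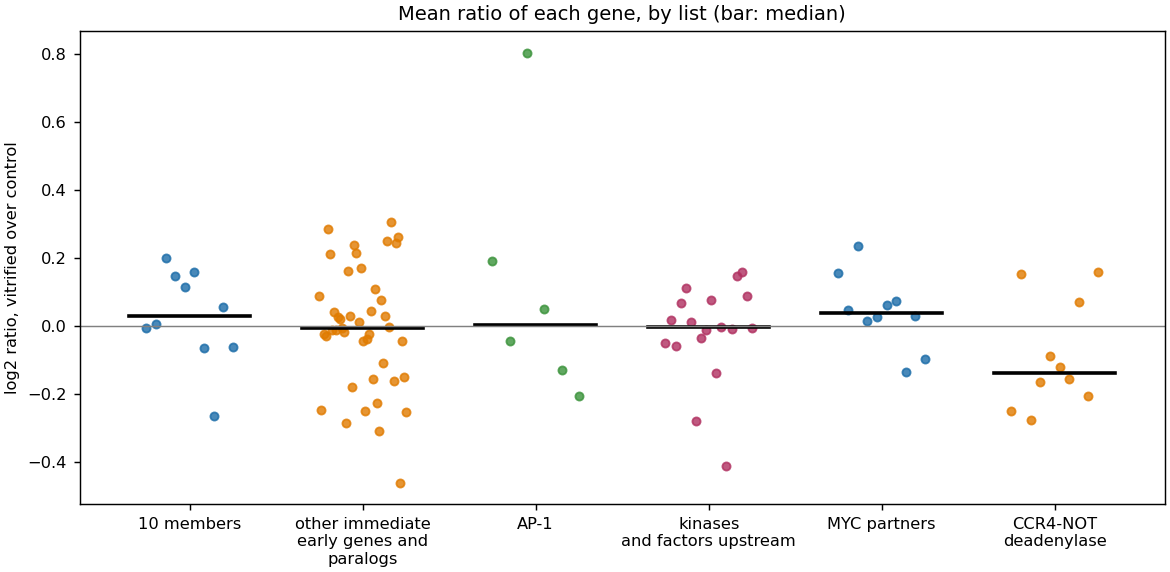
Mean log2 ratio of vitrified over control for each tested gene (points, main probe), grouped by list, with a bar at the median of each list. The 10 members spread from -0.26 to 0.20 around a median of 0.03, FOSL1 stands alone at 0.80 among AP-1 subunits, and the CCR4-NOT subunits have a median of -0.14.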

How the data were processed

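Raw spot and local background intensity in Cy3 and Cy5, not normalized, come from the deposited scanner files, per the file headers. A deposited table gives the authors' processed log2 values, whose normalization is unknown. Against the scanner ratios its columns correlated at r of 0.679 to 0.834 across probes, with slopes of 0.939 to 1.31 and medians of -0.010 to 0.010. The deposited table was therefore read as vitrified over control and used as an alternative. Both the 0.679 and the 1.31 came from area 1 of the second slide. The other arrays had r of 0.779 to 0.834 and slopes of 0.939 to 1.09.

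Mean spot intensities were corrected with normexp on the median local background (offset 50) and normalized within arrays by loess, control spots at weight 0, in limma 3.58.1 (R 4.3.3). A spot was above background when its log2 signal passed the mean plus 2 SD of 153 negative control spots, and a probe was tested when this held on at least 4 of 8 arrays in either group's channel. The offset draws ratios of dim spots toward 0. Levels are channel values after loess and Aquantile scaling. The 4 pair means were tested against 0 with lmFit and eBayes over all tested probes. The number of arrays limits the precision. In simulated pairs on 34912 probes, 75 of 100 changes of 1 on the log2 scale and 86 of 100 changes of 2 were called. The simulated noise between neighbouring arrays still held the dye difference of a probe. It was added to pair values drawn at the observed SD of the pair means, which already holds array noise. Array noise was thus counted more than once. Changes as small as the member means, at most 0.26 in size, were not simulated, so these counts do not apply to them.

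The labels give replicate numbers that cut across neighbouring areas, and the pairing rests on the arrays' agreement, not on the labels. Annotation gave 1 symbol to 21790 probes, several to 0 and none to 22004. Chromosomes were read from RefSeq genes (NIAB-ARS_B.indTharparkar_mat_pri_1.0), where all 10 members have an entry. Every probe of a member was named. A gene with several probes is represented by its brightest. From each other list the 2 genes of smallest p were named, and for EGR1 the 3 nearest genes. CNOT2 and RQCD1 were named besides these. The members and lists were chosen with earlier results of these data known. Alternatives covered the grouping of arrays, the slide, background, normalization, filter, deposited values and each pair left out. A limit without outlying control spots and the mean local background were added after seeing the data.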

Additional observations from a re-analysis of the deposited data

Results flagged for a closer look

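In IER3, pair 4 lay far from the others, at a log2 ratio of -0.373 against 0.25 to 0.31 in the other 3 pairs, and both of its arrays showed it. The array on area 1 of the second slide had 28.0% of its probes above background, and the other arrays had between 72.3% and 79.2%. Of 48 groups of values examined in this way 2 held such a value, and chance flags about 1 in 20 groups, which is 2.4 here.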

How the results depend on the processing

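EGR1, IER2, IER5, MYC and ZFP36 kept their direction under all alternatives run. Regrouping the same arrays, taking the slide as a block or changing the filter cannot move the mean of a gene. Direction could therefore turn only under the other alternatives. The median over the member probes ran from 0.0125 to 0.0988 with 1 pair left out and was -0.0108 with median centring. With each slide alone, 6 member probes on the first and 8 on the second had 1 sign in both pairs, against 3 in all 4 pairs, and with 1 pair left out 4 to 7 had. Fewer pairs make a shared sign more frequent by construction. IER3 was at -0.061 on the second slide alone. DUSP1 was at -0.148 on the first slide alone, -0.075 with median centring, -0.012 with the authors' deposited values, and -0.106 to 0.087 with 1 pair left out. BTG2 was at 0.180 on the first slide alone, 0.0044 without background correction, 0.095 with the deposited values, and -0.150 to 0.099 with 1 pair left out. KLF6 was at 0.042 on the first slide alone and -0.205 to 0.0059 with 1 pair left out. NR4A1 was at -0.011 with median centring. The cause was not tested. In 157 comparisons of a gene with an alternative, 141 kept direction and call, 14 turned direction and 2 gained a call. These counts include the alternatives that cannot turn a direction.

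With the 8 arrays taken singly and the replicate number as a block, limma called 1043 probes and 2 member probes, IER2 (adjusted p = 0.0372) and MYC (adjusted p = 0.0475). This fit counts each neighbouring pair of arrays as separate samples. Over all alternatives the adjusted p ran from 0.0372 to 0.999 for IER2 and from 0.0475 to 0.977 for MYC. The block correlation was estimated at -0.112, and arrays of one replicate number had a mean r of 0.0986, against 0.834 for neighbouring areas. What arrays of one number have in common besides it was not tested. With arrays of a number averaged, limma called 0 probes, with 5174 at an unadjusted p under 0.05, 3 of them member probes. That is over 1.5 times the 2688 of the fit over pairs. The filter on all 8 arrays in both channels left 6 of the 11 member probes, so EGR1, ZFP36, KLF6 and MYC have no value there. Dim signal limits EGR1, MYC and the second IER2 probe most.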
